A study of Mus musculus with 3 samples.

Results

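CpGs of extreme coverage were selected on the number of observations in the REST knockout library, as all autosomal CpGs with at least 100 observations there. They numbered 14514 of the 20364700 CpGs of the 19 mouse autosomes, and CpGs less than 500 bp apart joined into 4966 regions with a median of 2 CpGs. Of these CpGs, 13554 had 100 to under 1000 observations, 804 had 1000 to under 10000 and 156 had at least 10000. The working name for this set was collapsed repeats, which the data bore out for the observations but not for most of the CpGs. A repeat with a 234 bp unit received 95.1% of the observations on selected CpGs, whereas 13497 of the 14514 CpGs belonged to none of the repeat families described here. The set is therefore called by its rule.

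The series held 3 bisulfite sequencing libraries of mouse embryonic stem (ES) cells. A single library was whole-genome bisulfite sequencing (WG-BisSeq) of cells of Black Agouti 129 background that lack REST, a repressor of neuronal genes. CTCF ChIP-BisSeq, in which DNA bound by the insulator protein CTCF is immunoprecipitated and then bisulfite sequenced, was done in 2 replicates of wild type cells of mixed 129-C57Bl/6 background, each from 5 pooled ChIP experiments. All cells were grown with serum and LIF on feeder cells or gelatine, so that genotype, strain and assay differ together between the groups and cannot be told apart. DNA of Drosophila cells was added as a carrier to the ChIP libraries, and the amplification was 10 cycles for the REST knockout library and 18 for the ChIP libraries. Feeder cells are mouse cells too, and their share in any library was not measured. The value at each CpG was the number of observations (reads covering it) and how many of them were methylated. The REST knockout library held 273375318 observations, ChIP replicate 1 held 13411280 and ChIP replicate 2 held 25262179.

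In bisulfite sequencing unmethylated cytosines are read as T and methylated ones as C. Repeated DNA is a special case, because an assembly holds only a few copies of an array that the cell carries many times over, and reads of all copies then pile up on the few that were assembled. In the mouse, the largest such array is the AT-rich major satellite, which forms the pericentromeric heterochromatin of the acrocentric chromosomes and is densely methylated in most cells. The minor satellite lies at the centromere itself and carries the CENP-B box, the binding site of the centromere protein CENP-B. Ribosomal DNA (rDNA) is also arrayed in many copies, of which a part is transcribed and unmethylated. A genomic change from C to T in some copies of a repeat is read like an unmethylated cytosine.

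The repeat unit that carried most of the observations is shown first, since the positions given below count from its first base. It lies at chr9:3000240-3000473 (mm9, plus strand), in the assembled start of chromosome 9. Capitals mark CpGs.
234 bp unit: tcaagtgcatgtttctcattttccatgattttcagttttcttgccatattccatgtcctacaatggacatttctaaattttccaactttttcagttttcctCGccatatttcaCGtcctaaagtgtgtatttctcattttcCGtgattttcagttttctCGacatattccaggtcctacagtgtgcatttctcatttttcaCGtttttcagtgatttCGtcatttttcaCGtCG

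The 8 contexts of 52 bases with the most observations all belonged to this repeat. Some of them occurred at several selected CpGs, up to 14, over which their observations were summed. Each is given at 1 place, and these places lay in 2 regions of chromosome 2. They are printed in the orientation of the unit, with the measured CpG in capitals, to show the sequence around the deepest positions.
position 160 at chr2:98507281-98507332, minus strand: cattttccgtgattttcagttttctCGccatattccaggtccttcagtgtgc
position 142 at chr2:98507299-98507350, minus strand: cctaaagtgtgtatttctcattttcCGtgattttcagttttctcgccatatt
position 202 at chr2:98507239-98507290, minus strand: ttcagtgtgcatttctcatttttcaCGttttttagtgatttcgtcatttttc
position 114 at chr2:98507327-98507378, minus strand: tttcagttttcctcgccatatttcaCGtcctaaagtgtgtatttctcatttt
position 102 at chr2:98507339-98507390, minus strand: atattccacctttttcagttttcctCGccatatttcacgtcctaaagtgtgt
position 218 at chr2:98507223-98507274, minus strand: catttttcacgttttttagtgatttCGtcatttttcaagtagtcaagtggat
position 233 at chr2:98502427-98502478, plus strand: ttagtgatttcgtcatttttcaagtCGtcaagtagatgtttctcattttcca
position 218 at chr2:98502412-98502463, plus strand: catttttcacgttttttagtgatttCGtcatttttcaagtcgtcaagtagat

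Coverage rose to extreme values at very few sites. The CpG at chr2:98507306, position 160 of the unit, had 14175639 observations in the REST knockout library, which were 5.27% of all autosomal observations of that library. The selected CpGs received 39.0% of the autosomal observations in the REST knockout library, 1.42% in ChIP replicate 1 and 6.39% in ChIP replicate 2. The 156 CpGs with at least 10000 observations alone took 37.3%, 1.06% and 5.67%. Chromosome 2 held 84.2% of the observations on selected CpGs and chromosome 9 held 11.4%. Within 10 observations below the threshold, 6191 CpGs were 52.02% methylated in the REST knockout library, and the 3699 CpGs from 100 to under 110 observations were 55.1% methylated.

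**Figure D1:**
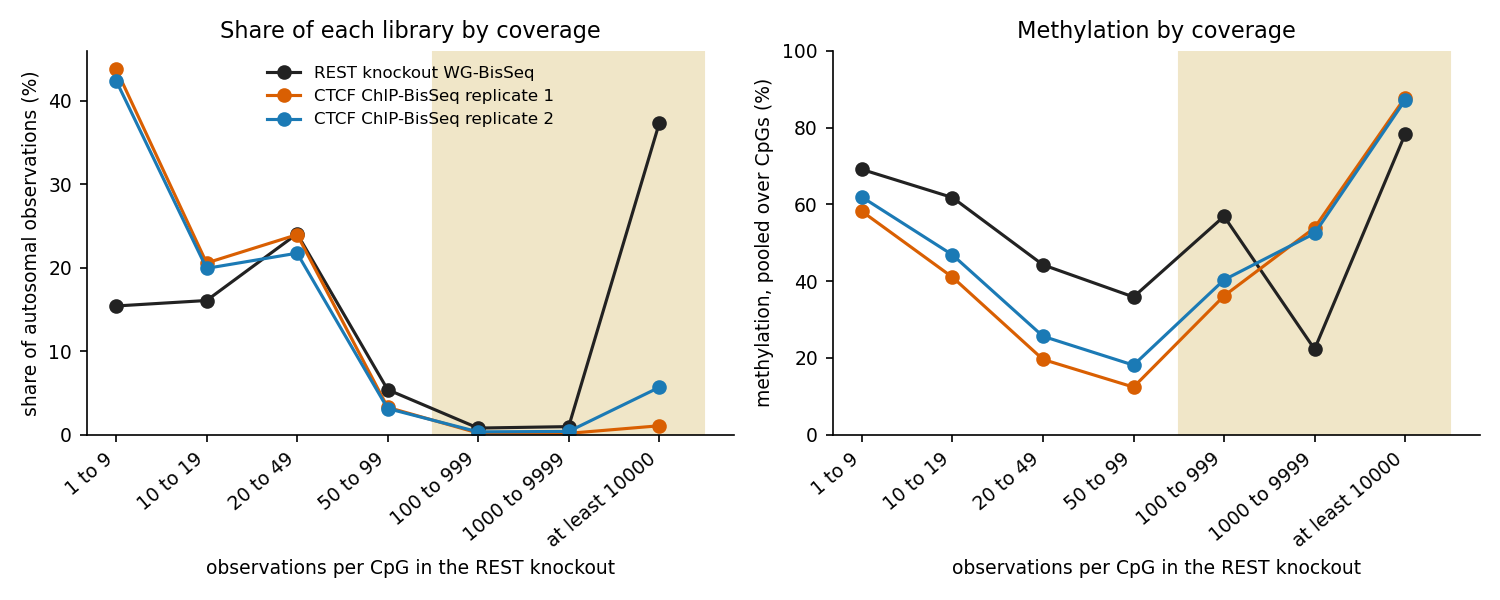
Share of each library (left, % of autosomal observations) and methylation pooled over CpGs (right, %) against the number of observations per CpG in the REST knockout library, with the selected classes shaded. The share of the REST knockout library in the deepest class is 37.3%, and methylation in that library is 56.9%, 22.3% and 78.2% in the 3 shaded classes.

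Methylation differed widely between the coverage classes. In the REST knockout library it was 56.9% at CpGs with 100 to under 1000 observations, 22.3% at those with 1000 to under 10000 and 78.2% at those with at least 10000. In the ChIP libraries the corresponding levels were 36.1% and 40.3% (replicates 1 and 2), 53.9% and 52.4%, and 87.8% and 87.1%. The middle class was thus the lowest in the REST knockout library and lay between the others in ChIP-BisSeq. These levels were pooled over observations. The median over CpGs of the middle class with at least 10 observations was 8.34% in the REST knockout library, 0% in replicate 1 and 9.52% in replicate 2, so that few deeply covered CpGs set the pooled ChIP level. Over all selected CpGs methylation was 76.4% in the REST knockout library and 79.8% ± 3.95 (SD, n = 2) in ChIP-BisSeq, compared with 54.4% and 46.9% ± 3.48 (SD, n = 2) at all other autosomal CpGs. A few deeply covered satellite CpGs set these pooled levels. As a mean over CpGs with at least 10 observations, methylation of the selected CpGs was 56.4% in the REST knockout library and 36.7% in ChIP-BisSeq. The REST knockout mean at all other CpGs was 54.8%. The means of the selected CpGs covered different sites, 14514 in the REST knockout library, 797 in replicate 1 and 1699 in replicate 2. Their order is therefore no comparison of the same sites. At the 761 selected CpGs with at least 10 observations in every library, the medians were 10.6%, 15.8% and 13.7%. There the median difference, REST knockout minus replicate, was -0.102 and -2.59 points. The exact 95% (Clopper-Pearson) intervals of these pooled levels are narrow and cover counting error only, because reads of one amplified molecule are not independent.

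The CpGs in the classes also lay in different sequence. The median number of CpGs within 100 bp was 3 in the class of 100 to under 1000 observations, as for all autosomal CpGs, 20 in the class of 1000 to under 10000 and 5 in the deepest class. The same 52 bases occurred at 2 or more CpGs of the genome for 9.75%, 18.3% and 53.2% of the CpGs in the classes, against 11.03% of all autosomal CpGs. Annotated exons held 8.83%, 18.2% and 39.7% of the CpGs in the classes, against 9.22% of all autosomal CpGs. Within 1 kb of an annotated gene start lay 14.5%, 27.9% and 60.9%, against 7.82% of all. 

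**Figure D2:**
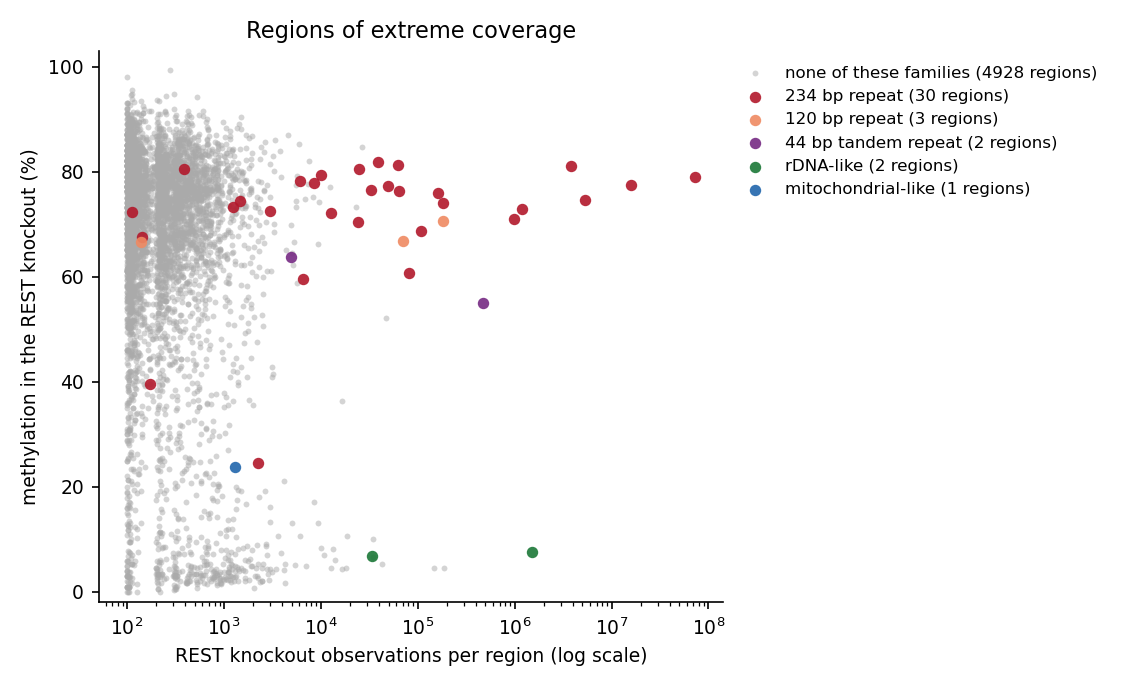
Methylation in the REST knockout library (%) against the number of observations per region (log scale) for the 4966 regions, coloured by the family with most observations in the region. Regions of the 234 bp repeat reach 72120550 observations near 79%, and the rDNA-like regions lie below 10%.

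The 234 bp repeat, which has the unit length of the major satellite, comprised 340 CpGs in 30 regions and 100013675 observations. Its methylation was 78.4% in the REST knockout library, 87.7% in ChIP replicate 1 and 87.1% in ChIP replicate 2, so that both replicates lay above the REST knockout library and close to each other. The most covered region, chr2:98506419-98507482 with 30 CpGs, overlapped the predicted protein-coding gene Gm10800. It had 72120550 observations at 78.9% methylation in the REST knockout library, 63951 at 89.8% in ChIP replicate 1 and 921670 at 87.8% in ChIP replicate 2. The next, chr2:98502421-98503099 in the predicted gene Gm10801, had 16037775 observations at 77.5% methylation in the REST knockout library and 85.6% and 86.2% in the replicates. A block of 10 CpGs far from that array, chr9:35112827-35113167 between genes, had 5283444 observations at 74.6%, 84.1% and 84.7%. In all 3 regions the ChIP replicates differed from each other by less than either differed from the REST knockout library.

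The assembled start of chromosome 9 held a row of smaller regions of the same repeat along the noncoding RNA gene Gm16869. The first, chr9:3000031-3003539 with 54 CpGs, overlapped Gm10722 and had 3786936 observations at 81.0% in the REST knockout library, with 89.4% and 81.9% in the replicates. In chr9:3022061-3027850, across Gm10718 and Gm10717, 72 CpGs had 1183089 observations at 72.8%, with 85.9% and 82.96% in the replicates. In chr9:3029355-3030309 the level was 70.9% at 980259 observations, with 93.7% and 81.8%, and in chr9:3035687-3038256 it was 74.0% at 184024 observations, with 84.1% and 82.5%. The REST knockout level thus spread over about 10 percentage points between these regions, and it was below replicate 1 and replicate 2 in each of them.

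Outside chromosomes 2 and 9, the repeat was seen in short blocks, some of them inside genes. The region chr12:3109883-3110117 lay between genes, 27333 bp from the nearest gene start. It had 6 CpGs and 163180 observations at 75.9% in the REST knockout library, 89.8% and 89.5% in the replicates. An intronic block of 2210408I21Rik on chromosome 13, chr13:77578186-77578316, had 61958 observations at 81.3%, 93.9% and 83.1%.

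Annotated protein-coding genes with at least 1 CpG of at least 10000 observations numbered 13. Of them, 10 were predicted genes of the satellite blocks, led by Gm10800 with 22 such CpGs, 71181025 observations and 78.9% methylation, and Gm10801 with 20 such CpGs and 77.5%. On chromosome 9 they were Gm10722 (82.7% in the REST knockout library), Gm10718 (71.02%), Gm10717 (73.4%), Gm10106 (69.5%), Gm10719 (86.3%), Gm10720 (82.8%), Gm10715 (70.8%) and Gm17535 (73.0%). The remaining genes were Chl1, which encodes a neural cell adhesion molecule (64.0%), 2210408I21Rik (81.2%) and Abhd6, which encodes a monoacylglycerol lipase (8.29%). Like Gm10719 and Gm10720, they had such CpGs only outside exons. The single CpG of Abhd6 had 32711 observations in the REST knockout library, none in ChIP replicate 1 and 13 in replicate 2, of which 46.2% were methylated.

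Methylation within the 234 bp unit depended on the position of the CpG. At 8 positions of the unit the deposited CpGs gathered at least 5997271 observations each. At position 202 the level in the REST knockout library was 62.9% over 58 CpGs and 17016433 observations. At the other 7 positions it was 79.0% at 102, 79.8% at 54, 80.0% at 142, 80.1% at 114, 82.3% at 233, 83.1% at 160 and 85.7% at 218. Position 202 was thus the lowest, with a difference of -18.8 percentage points to the other positions pooled, although it lies next to position 218, the highest. The position was picked by these REST knockout values, so that its place there is a description.

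The same position was lower in the ChIP libraries, which had no part in picking it. It had 82.8% in ChIP replicate 1 and 82.2% in replicate 2, and its difference to the other positions pooled was -5.85 and -6.33 percentage points. Region by region, position 202 was below the other positions in 13 of 13 regions of the REST knockout library (at least 1000 observations a CpG), with a median difference of -22.0 points and a range from -37.6 to -9.40. With at least 10 observations a CpG it was lower in 11 of 12 regions in ChIP replicate 1, with a median of -5.52, and in 12 of 12 in replicate 2, with a median of -7.24. The exception in replicate 1 was higher by 55.2 points. These regions share their sequence and, in repeated DNA, may share reads, so that they are not independent.

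**Figure D3:**
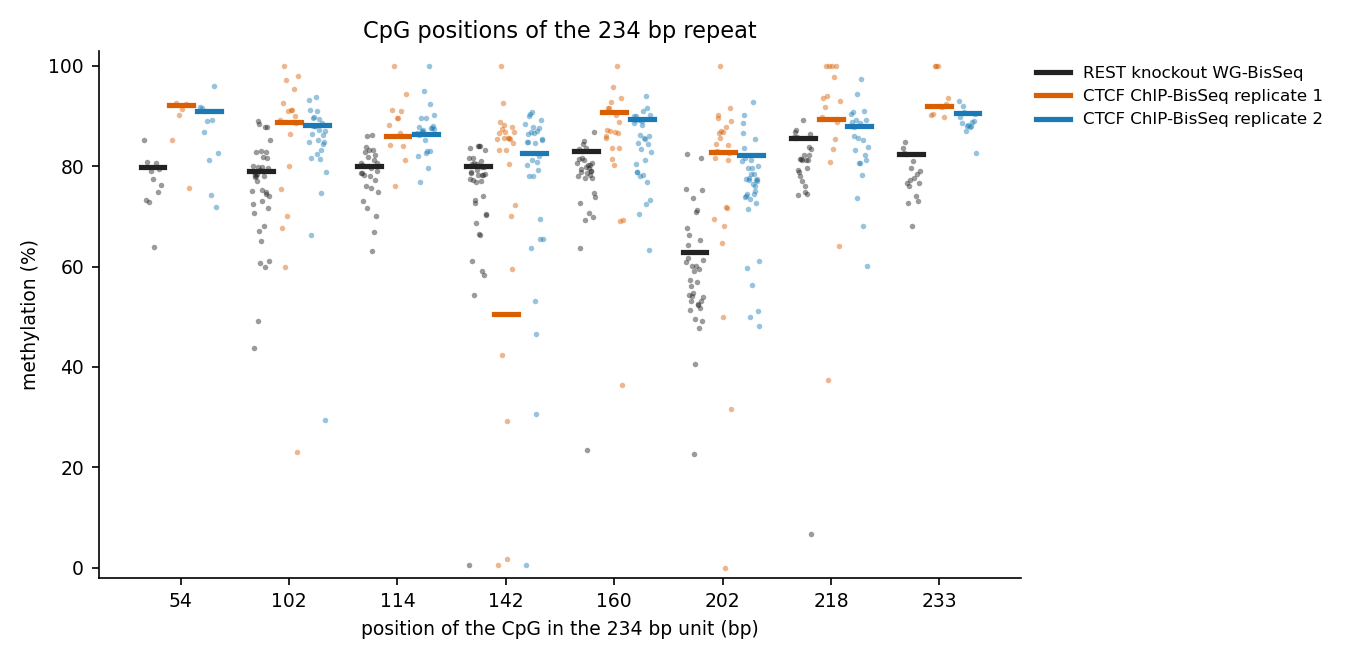
Methylation (%) at the 8 main CpG positions of the 234 bp unit in each library, with 1 point per CpG of at least 1000 observations (REST knockout) or 10 observations (ChIP) and a bar for the level pooled over all CpGs of the position. Position 202 is lowest in the REST knockout library at 62.9%, and the bar of ChIP replicate 1 at position 142 lies at 50.5%.

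The pooled level at position 142 in ChIP replicate 1, 50.5%, was set by 1 CpG. The CpG at chr2:98502984 was nearly unmethylated in every library, at 0.605% of 18999 observations in the REST knockout library, 0.582% of 3092 in ChIP replicate 1 and 0.474% of 11609 in replicate 2. The median over the 25 CpGs of that position with at least 10 observations in replicate 1 was 85.4%. In all, 7 CpGs of the repeat were under 30% methylated in the REST knockout library. Of the others, chr2:98503060 had 22.3% of 235315 observations, against 50.6% and 53.3% in the replicates.

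Copies of the unit within 3 kb of the selected regions differed in the bases at these positions. At position 202, 77.4% of 208 copies had CG, 1.44% had TG and 5.29% had CA, the products of a C-to-T change on either strand. At position 218, 57.5% of 193 copies had CG, 31.6% had TG and 7.25% CA. At position 54 the printed unit has TG, as did 62.2% of the copies, and 10.9% had CG. Position 202, with the lowest methylation, hence had the largest share of CG and the smallest share of TG among these assembled copies. The copies outside the assembly were not seen, and their part in the levels was not tested.

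Coverage of the repeat differed between the ChIP replicates. Coverage was scaled to the observations on all other autosomal CpGs of the same library, and the ratio of the scaled ChIP coverage to the scaled REST knockout coverage was 0.0181 for the 234 bp repeat in replicate 1 and 0.0990 in replicate 2. That these ratios lie below 1 follows in part from the rule, which chose CpGs for high REST knockout coverage, and the ratio of replicate 1 also fell with REST knockout coverage outside the set, from 1.76 at 1 to 9 observations to 0.376 at 50 to under 100. The replicates, which the rule did not use, differed from each other several fold. Neighbouring CpGs differed as well. At chr2:98507324, position 142, there were 12601301 observations in the REST knockout library, 0 in ChIP replicate 1 and 121024 in replicate 2, while chr2:98507306 had 28802 and 278039. The CpG at chr2:98507352, position 114, had 8617990 observations in the REST knockout library and none in either replicate.

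The absence of ChIP observations went with the number of copies of the surrounding sequence. Among the 156 CpGs with at least 10000 observations, 83 had 52 surrounding bases that occur at 2 or more CpGs of the genome, and 80.7% of these had no observation in ChIP replicate 1 and 39.8% had none in replicate 2. Of the 73 with 1 copy, 13.7% had none in replicate 1 and 1.37% had none in replicate 2. How reads with several equally good positions were handled in each library is not given in the sources used here, and its part in these shares was not tested.

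The 120 bp repeat, which has the unit length and the CENP-B box of the minor satellite, comprised 22 CpGs in 5 regions with 516246 observations. The family was set by similarity to chr2:98505220-98505349. Among regions that held a CENP-B box and did not resemble the 234 bp repeat, this one had most observations. That the family holds the box therefore follows from this choice. From this region 120 bases are printed with the CENP-B box in capitals (chr2:98505165-98505284, mm9, plus strand).
120 bp repeat: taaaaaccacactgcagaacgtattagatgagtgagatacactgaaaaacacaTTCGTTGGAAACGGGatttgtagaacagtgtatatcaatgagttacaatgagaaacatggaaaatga

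Methylation of the 120 bp repeat was 68.7% in the REST knockout library, 82.7% in ChIP replicate 1 and 81.5% in replicate 2. These pooled levels were below those of the 234 bp repeat in each library, but as a mean over CpGs with at least 10 observations the 120 bp repeat was higher in both replicates (84.3% against 81.3%, and 81.99% against 80.2%). Its scaled ChIP coverage was 0.330 and 1.04 times that in the REST knockout library, higher than for the 234 bp repeat in both replicates. In the region printed, 180927 observations were 70.6% methylated in the REST knockout library, and the replicates had 383 at 83.03% and 11970 at 83.5%. A block of the same repeat in an intron of Chl1, chr6:103599161-103599281, had 70545 observations at 66.9%, against 87.4% and 81.1%.

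The CENP-B box was searched as TTCG, 4 free bases, A, 2 free bases and CGGG on both strands. The box matched 8 times in 6 of the 4966 regions with 100 bp around them, which is 0.121% of the regions and 1.44% of the 555 matches on the autosomes. Of the matches, 7 had the same bases and lay in the 120 bp repeat, and the other, on chromosome 15, held no selected CpG. That these 7 lay in the repeat follows in part from its definition by a region chosen for the box. The box at chr2:98505218-98505232 had 2 CpGs, of which the first in the orientation of the box was 66.8% methylated and the second 80.6% in the REST knockout library. In ChIP replicate 2 they were 80.8% and 87.3% methylated. At chr2:98505338-98505352 the pair had 56.7% and 72.1%, and at chr2:98502831-98502845 71.1% and 78.9%. At chr6:103599159-103599173 the pair had 63.9% and 64.2%, and at chr2:98506539-98506553, with 868 observations, 48.9% and 44.8%. In the REST knockout library the first CpG was thus lower at 5 of the 6 boxes with 2 measured CpGs. In ChIP replicate 2 the order was the opposite at the last 2 boxes named, with 83.4% and 77.7% at the former and 79.7% and 87.9% at the latter.

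A tandem repeat of 44 bp on chromosome 4 was the most covered region outside satellites and rDNA. The region chr4:118219771-118221335 lies between genes, 3904 bp from the start of Tmem125, which encodes a transmembrane protein. A stretch of 88 bases of it (chr4:118221204-118221291, mm9, plus strand) is printed to show the period, with CpGs in capitals.
44 bp repeat: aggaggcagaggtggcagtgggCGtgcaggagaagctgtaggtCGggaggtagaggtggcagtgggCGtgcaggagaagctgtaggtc

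Its 52 CpGs had 473528 observations at 55.1% methylation in the REST knockout library, with single CpGs from 33.2% to 68.3%. ChIP replicate 1 had 1 observation there and replicate 2 had 90, of which 83.3% were methylated (exact 95% interval 74.0% to 90.4%). The level in wild type cells could not be read from replicate 1 at this depth.

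The largest region by number of CpGs was chr17:39979946-39985763, with 573 selected CpGs in 5818 bp, and overlapped the pseudogene AY036118. In RefSeq's annotation of the later assembly GRCm38.p6, AY036118 borders Rn18s-rs5, a pseudogene named after the 18S ribosomal RNA. The block and the sequence similar to it are called rDNA-like from this neighbour and their CpG density alone, since no ribosomal DNA sequence was compared with them. No gene annotated as ribosomal RNA overlapped a selected CpG in the annotation used here. The 120 bases around its most covered CpG (chr17:39982470-39982589, mm9, plus strand) are printed to show the density of CpGs.
rDNA-like: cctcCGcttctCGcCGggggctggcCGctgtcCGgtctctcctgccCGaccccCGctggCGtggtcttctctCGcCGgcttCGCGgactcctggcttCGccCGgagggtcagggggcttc

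This block was nearly unmethylated, at 7.504% of 1510858 observations in the REST knockout library, 8.73% of 6687 in ChIP replicate 1 and 9.16% of 31930 in replicate 2. The exact 95% intervals of the replicates, 8.07% to 9.44% and 8.84% to 9.48%, overlapped each other and lay above the REST knockout level. These levels are pooled, and the intervals cover counting error only. At 296 CpGs of the rDNA-like family with at least 10 observations in every library, the order was not the same. The median difference there was 5.22 points for REST knockout minus replicate 1 and -0.960 points for REST knockout minus replicate 2. Single CpGs in the REST knockout library ranged from 1.93% to 35.6%, and over steps of 1 kb the level lay between 5.59% and 10.4%. From 4001 to 5000 bp into the block ChIP replicate 1 reached 18.3% and replicate 2 reached 11.4%, while the REST knockout library had 6.85%. The highest single CpG of the REST knockout library lay in the same step, but its high CpGs were not those of replicate 1. At the CpG 4335 bp into the block the REST knockout library had 25.7% of 210 observations and replicate 1 had 3.85% of 52, whereas at 4777 bp they had 10.2% of 5444 and 64.9% of 37. Coverage in the REST knockout library averaged 1554 to 3823 observations a CpG over the steps, against 9.15 to 16.0 in ChIP replicate 1 and 34.8 to 74.8 in replicate 2. A similar block on chromosome 6, chr6:3151396-3151587, had 19 CpGs and 33426 observations at 6.81%, with 17.9% and 3.52% in the replicates.

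**Figure D4:**
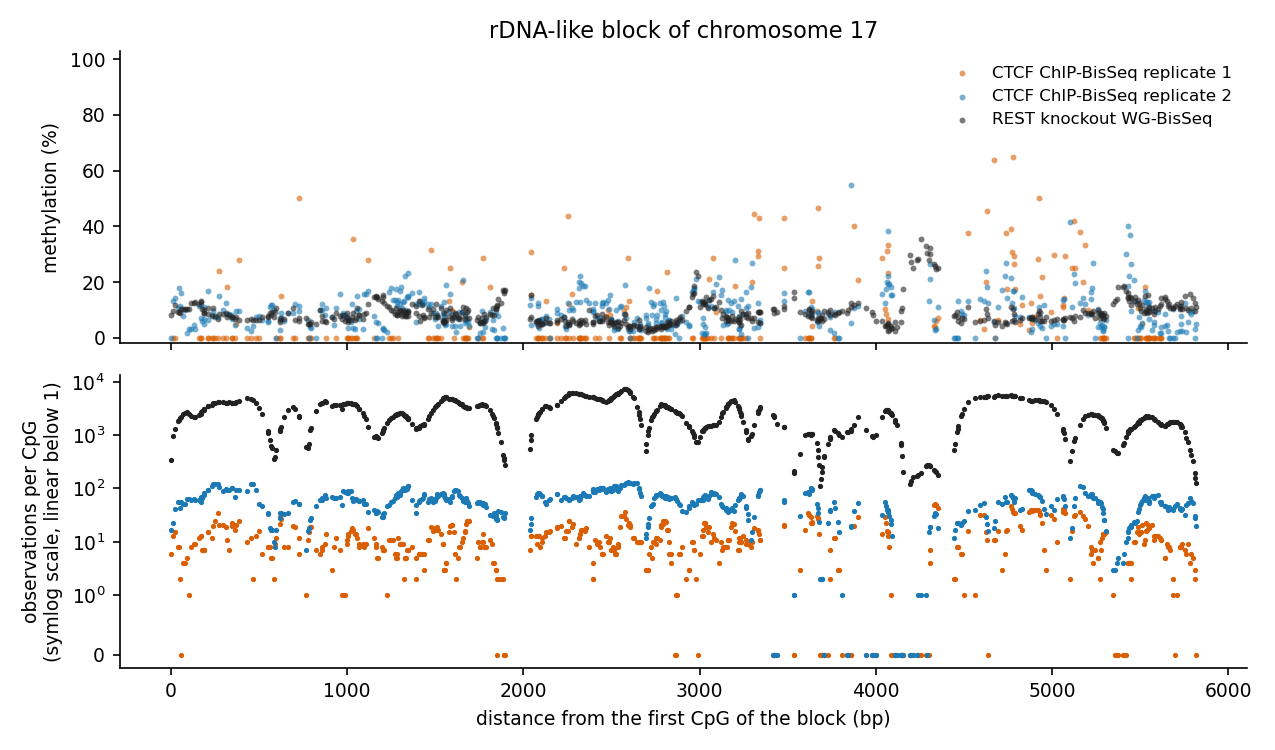
Methylation (top, %, CpGs with at least 10 observations in the ChIP libraries) and number of observations per CpG (bottom, log scale above 1) along the rDNA-like block of chromosome 17, against the distance from its first CpG. Methylation in the REST knockout library stays between 1.93% and 35.6% over the 573 CpGs.

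Several shorter CpG-dense blocks were as little methylated as the rDNA-like block without reaching the similarity to it that set that family. They were not compared with ribosomal RNA sequence, and whether they derive from ribosomal DNA was not tested. The 3 with most observations are printed over 100 bases around their most covered CpG, all on the plus strand of mm9, to show their CpG density.
chr16:11144141-11144240: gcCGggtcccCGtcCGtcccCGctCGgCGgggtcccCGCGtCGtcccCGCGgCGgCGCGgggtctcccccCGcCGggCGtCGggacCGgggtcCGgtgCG
chr16:57391635-57391734: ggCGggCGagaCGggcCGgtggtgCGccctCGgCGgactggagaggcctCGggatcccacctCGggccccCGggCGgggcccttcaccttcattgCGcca
chr11:108873236-108873335: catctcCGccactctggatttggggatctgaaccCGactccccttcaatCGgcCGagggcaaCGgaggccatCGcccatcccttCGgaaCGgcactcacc

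The block chr16:11144095-11144402 lies in Zc3h7a, a zinc finger gene, and overlaps the annotated miRNA mmu-mir-689-2. Its 48 CpGs were 4.597% methylated over 185565 observations in the REST knockout library, against 13.3% of 143 and 6.90% of 449 in the replicates. The block chr16:57391521-57391787, in introns of 2610528E23Rik and Filip1l, had 33 CpGs at 4.599% over 147219 observations, with 3.74% and 5.13% in the replicates. The block chr11:108873051-108873397 between genes had 28 CpGs at 5.29% over 42550 observations, and here both replicates were higher, at 21.3% of 328 and 15.6% of 365. In chr19:61275583-61275696 the levels were 6.60%, 5.52% and 9.56%. Among the CpGs of 1000 to under 10000 observations outside the repeat families, 123 of 173 were below 10% in the REST knockout library, and their median number of CpGs within 100 bp was 17.

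A pair of loci on chromosome 8 had a higher scaled coverage in both ChIP replicates than in the REST knockout library, and is given as an example. At chr8:20019790-20020447, in the noncoding transcript 2610005L07Rik, 47 CpGs had 12814 observations in the REST knockout library, 6144 in ChIP replicate 1 and 18903 in replicate 2. The scaled coverage was 6.06 and 10.4 times that of the REST knockout library. The block was 4.495% methylated in the REST knockout library, 2.20% in replicate 1 and 2.54% in replicate 2. Another block, in the pseudogene Gm10060, chr8:19784573-19785185, had ratios of 1.11 and 2.18 and was 4.61%, 2.56% and 3.74% methylated. Of the 4966 regions, 34 had ratios above 1 in both replicates and 11 had ratios above 4. The highest ratio in replicate 1, 32.8, was that of a single CpG of the 120 bp repeat at chr9:24346535, with 138 observations in the REST knockout library, 358 in replicate 1 and 698 in replicate 2, and 66.7%, 80.7% and 81.7% methylation. At the other end, 1621 regions had no observation in either replicate.

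The remaining CpGs formed the bulk of the set by number. The 13497 CpGs outside the named families lay in 4928 regions and took 2.44% of the observations on selected CpGs. Of these CpGs 15.7% were below 10% methylated, 81.5% between 10% and 90% and 2.82% above 90% in the REST knockout library, with a median of 69.8%. Pooled, they were 47.9% methylated in the REST knockout library, 26.97% in ChIP replicate 1 and 31.02% in replicate 2. Among the larger of these regions were several at Sfi1, which encodes a centrosomal protein. At chr11:3092003-3094650, which reaches from Sfi1 into Drg1, 66 CpGs had 46553 observations at 52.1%, with 26.8% and 41.2% in the replicates. At chr11:3033107-3037694 in Sfi1 the levels were 73.2%, 95.5% and 84.9%. The Dux gene of chromosome 10, which encodes a double homeobox transcription factor and lies in a tandem array, had 12391 observations in 32 CpGs at 77.0%, with 70.8% of 24 and 90.4% of 114 in the replicates.

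On chromosome 1, 2 CpGs in a region of 336 bp, of which chr1:24619576 was the first, lay in a stretch resembling mitochondrial DNA, which a nuclear copy can resemble closely. Together they had 1294 observations at 23.8% in the REST knockout library. The pair differed widely, with 74.6% of 264 observations at the first, which had 0 of 12 methylated in ChIP replicate 1 (which allows up to 25.0%) and 0 of 14 in replicate 2 (up to 21.4%). Here and below, the level that a count of 0 allows is 3 over the number of observations, and not the limit of an exact interval.

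The REST knockout library was compared with each ChIP replicate at single CpGs by Fisher's exact test (two-sided), over all 84951 autosomal CpGs with at least 10 observations in every library and with Benjamini-Hochberg adjustment. Calls needed an adjusted p under 0.05 against each replicate, with the REST knockout level 20 percentage points or more above both replicates or below both. The test compares libraries and not conditions. Of the 761 selected CpGs that could be tested, 28 were lower in the REST knockout library (3.68%) and 11 were higher (1.45%). Over all CpGs tested the shares were 0.167% lower and 0.439% higher. The median level over all CpGs tested was 7.14% in the REST knockout library, 1.08% in replicate 1 and 5% in replicate 2. For the selected CpGs tested it was 10.6%, 15.8% and 13.7%. At most CpGs of both sets a REST knockout level 20 points below the replicates was therefore not possible, and the shares were not matched for level. The selected CpGs that were not tested had fewer than 10 observations in a ChIP library. The shares also varied with ChIP depth. Where the lower of the 2 ChIP coverages was 10 to 19, 0.512% of the selected CpGs and 0.210% of the others were lower in the REST knockout library, where it was 20 to 49 the shares were 2.69% and 0.0893%, and where it was at least 50 they were 11.4% and 0.0812%. This rise of the lower calls was seen among the selected CpGs alone, whose deepest group differed in makeup. Its median REST knockout level was 63.8%, against 8.74% in the shallowest group. In the same order of depth, 1.02%, 0.538% and 3.26% of the selected CpGs were higher in the REST knockout library. Of the others 0.135%, 0.402% and 1.06% were higher, so that their share in this direction did rise with depth.

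Most calls toward lower methylation in the REST knockout library lay in satellites. The 234 bp repeat had 21 of the 28 among 142 CpGs tested, the 120 bp repeat 4 among 17, the rDNA-like family 1 among 296 and the CpGs of no family 2 among 305. The rDNA-like CpGs tested had medians of 0% and 8.65% in the replicates, so that most of them could not be called lower. The median difference between the REST knockout library and the ChIP replicates was -11.1 and -8.95 points for the 234 bp repeat and -15.3 and -12.7 points for the 120 bp repeat. Over all CpGs tested it was 0.916 and 0.477 points. Whether or not a call was made, 114 of the 142 CpGs of the 234 bp repeat were lower in the REST knockout library than in both replicates. Position 202 of the unit accounted for 9 of the 21 calls among 25 CpGs tested, with median differences of -21.7 and -20.0 points. Since the position was picked for its low REST knockout level, these values are a description and no support for it. These CpGs share sequence and are not replicates of the genotype, which had 1 library.

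**Figure D5:**
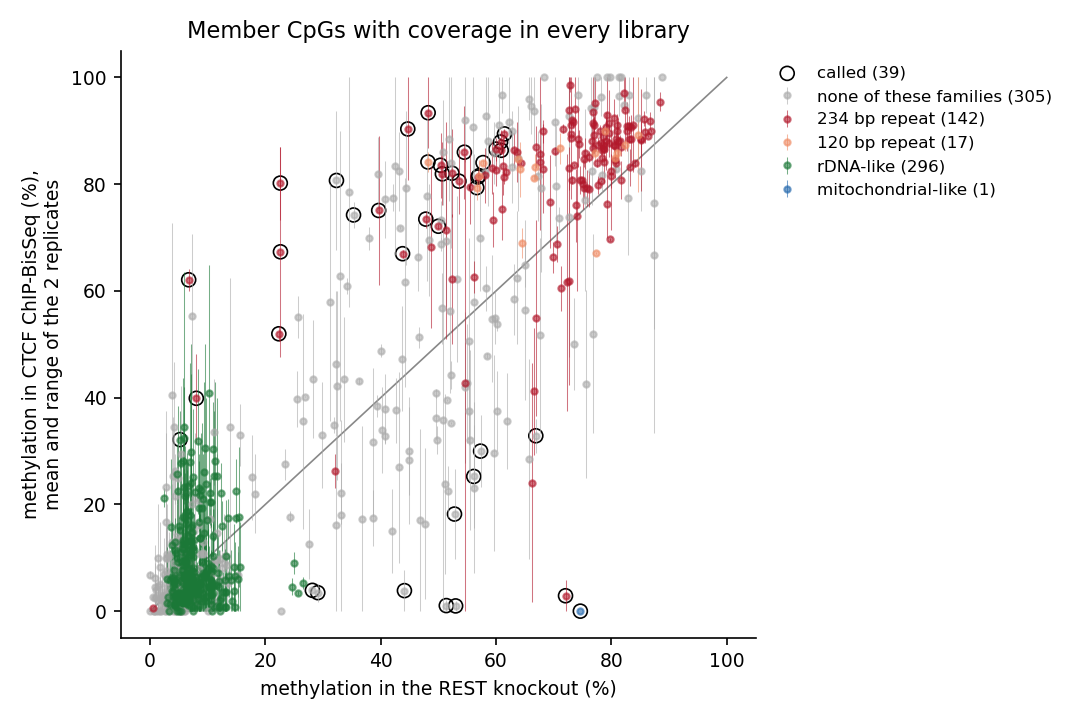
Methylation (%) of the 761 tested CpGs in the REST knockout library against the mean of the 2 ChIP replicates, with vertical lines for their range, the diagonal of equal levels and circles around the 39 called CpGs. The 234 bp repeat lies mostly above the diagonal, where the median REST knockout level is 74.3%.

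Of the 5 largest differences toward lower methylation in the REST knockout library, 4 were in the 234 bp repeat. At chr12:68160465, position 218 of a repeat copy in Mdga2, which encodes a synaptic adhesion protein, methylation was 6.71% of 1178 observations in the REST knockout library, 64.1% of 145 in ChIP replicate 1 and 60.04% of 563 in replicate 2 (Fisher's exact test, adjusted p = 6.05e-53 and 5.07e-124). At chr9:3019178, position 202, it was 22.6% of 2027, 87.0% of 108 and 73.4% of 169 (Fisher's exact test, adjusted p = 2.34e-39 and 6.14e-37). Nearby CpGs chr9:3019324 (48.2%, 100% and 86.8%) and chr9:3019196 (44.7%, 100% and 80.7%) differed in the same direction, so that 3 of the 5 came from 1 region of the row along Gm16869. The remaining CpG, chr7:7230871 between genes and in none of the families, had 35.3%, 76.7% and 71.8%. The test between the replicates gave an adjusted p of at least 0.0896 at these 5 CpGs (Fisher's exact test, Benjamini-Hochberg).

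Of the 11 calls toward higher methylation in the REST knockout library, 9 lay in none of the families, among 305 CpGs tested (2.95%). The 234 bp repeat had 1 among 142, the 120 bp repeat 0 among 17 and the rDNA-like family 0 among 296. Over all CpGs tested the share was 0.439%. ChIP medians were 86.9% and 84.4% in the 234 bp repeat and 85.7% and 82.4% in the 120 bp repeat. At most of these satellite CpGs a REST knockout level 20 points above both replicates was therefore not possible. The mitochondrial-like CpG chr1:24619576 had the largest difference, 74.6 points (Fisher's exact test, adjusted p = 6.97e-05 and 7.28e-06). At chr11:3001786, where an alignment to the 234 bp unit falls outside its main positions, methylation was 72.0% of 161 observations in the REST knockout library, 0 of 17 in ChIP replicate 1 (which allows up to 17.6%) and 5.77% of 104 in replicate 2. On chromosome 18, 3 neighbouring CpGs had 52.99%, 51.4% and 44.1% in the REST knockout library, none methylated of 26, 16 and 14 observations in ChIP replicate 1 (which allow up to 11.5%, 18.8% and 21.4%) and 1.96%, 2.08% and 7.69% in replicate 2. A further 4 calls came from the Sfi1 and Drg1 region of chromosome 11 and 2 from 1 block of chromosome 1.

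The ChIP replicates were compared with each other by the same test. Replicate 1 was lower at 18 of the 761 selected CpGs (2.37%) and higher at 21 (2.76%), against 0.338% and 3.25% of all CpGs tested. In the rDNA-like family 12 of 296 CpGs tested were higher in replicate 1 (4.05%), near the share over all CpGs tested. An example was chr17:39984723 with 64.9% of 37 observations against 16.9% of 65. In the Sfi1 and Drg1 region 9 CpGs that were lower in replicate 1 lay close together. An example was chr11:3093171 with 6.94% of 72 against 40.8% of 157. In the 120 bp repeat 0 of 17 tested CpGs were called between the replicates, too few CpGs to tell from the shares over all CpGs tested. The calls numbered 39 between the replicates and 39 between the REST knockout library and both replicates. These counts are not alike, since a call between replicates needed 1 test and a REST knockout call needed 2. With 1 test, 93 selected CpGs were lower and 36 higher in the REST knockout library against replicate 1. Against replicate 2 they were 44 and 15. In the 234 bp repeat, 2 CpGs were called both between the replicates and between the REST knockout library and both replicates.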

How the data were processed

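The authors deposited, for each library, a table of raw counts that lists how often every CpG was observed and how often it was read as methylated. The submitters' processing notes name Bowtie 0.10.0.1 and mm9. Duplicate removal and the handling of reads with several positions are not given in the sources used here. From the counts, methylation was taken as methylated observations over all observations, with exact Clopper-Pearson 95% intervals that cover counting error only. Sequence came from the NCBIM37 (mm9) genome with GENCODE genes. CpGs were placed in the 234 bp repeat by BLAST+ 2.17.0 alignments to its unit of at least 75% identity over 40 bp, which also gave the unit positions. The 120 bp and rDNA-like families were set by similarity of at least 80% over 50 bp to seed sequences taken from the selected regions. The seed of the 120 bp repeat was picked among regions with a CENP-B box. The 44 bp repeat was set by its tandem period. These rules were chosen after seeing the data. Mitochondrial-like CpGs needed 90% identity over 100 bp. Classes planned from the tandem period alone held 174 CpGs with a period near 234 bp, 0 near 120 bp, 346 of other periods, 0 in annotated ribosomal RNA genes, 1312 in several copies and 12680 in a single copy. Fisher's exact tests with Benjamini-Hochberg adjustment (SciPy 1.17.1, Python 3.11.15) ran over all CpGs with at least 10 observations in every library and were tested on simulated data.

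The selected CpGs, lists and rules were chosen with earlier results of these data known. Named by rule were the 10 regions with most observations, the most covered CpG, the top region of each repeat class, the 8 most covered contexts, protein-coding genes with a CpG of at least 10000 observations, CENP-B boxes and the 5 largest called differences in each direction. Other regions and CpGs named were chosen after their values were seen. The ChIP replicates are separate pools of ChIP experiments by the labels, and the REST knockout has 1 library.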

Additional observations from a re-analysis of the deposited data

Results flagged for a closer look

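Mitochondrial DNA lies outside the autosomal comparisons and was listed only in ChIP replicate 1, with 5860 observations on 189 CpGs, of which 4.16% were methylated (exact 95% interval 3.67% to 4.71%).

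On the sex chromosomes, which were not used in the comparisons, 418 CpGs reached 100 observations in REST knockout cells, and 26.9% of their 228375 observations were methylated (exact 95% interval 26.8% to 27.1%).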

How the results depend on the processing

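With a minimum of 50 observations the rule selected 253328 CpGs in 49703 regions, and with 200 it selected 2705 in 603. Methylation of all selected CpGs (REST knockout, then ChIP mean) was 71.5% and 46.6% with a minimum of 50, and 76.7% in the REST knockout with 200. It was 56.4% and 36.7% as a mean over CpGs, 68.9% and 17.8% as a median, 70.997% and 72.8% without the most covered region, and 75.3% in the REST knockout without the most covered CpG. In the lowest class it was 38.5% and 16.98% with a minimum of 50, 50.8% and 33.2% with 200, 58.3% and 44.7% as a mean, and 69.9% as a median in the REST knockout. The middle class had 20.9% and 18.7% as a mean and 8.34% and 4.76% as a median, without the higher ChIP level of the pooled values. All these means and medians used the CpGs with at least 10 observations in the library concerned. Those CpGs differ between the libraries, so that the REST knockout and ChIP values do not compare the same sites. The deepest class had 71.962% and 83.5% as a mean, 77.2% and 86.5% as a median, 77.4% and 86.6% without the most covered CpG, and 76.5% and 85.97% without the most covered region. Without that region, in an alternative chosen after seeing the data, the 234 bp repeat had 76.9% and 85.7%, and the difference at position 202 in the REST knockout was -22.2 points.

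CpGs lower in the REST knockout numbered 60 at a difference of 10 points, 7 at 30 points, 74 with pooled replicates, 51 with a minimum of 50 for selection, and 44 to 93 without one replicate. Without CpGs called between replicates there were 26, and 11 were higher. CpGs higher in the REST knockout numbered 7 at a coverage of 20, 19 at 10 points, 6 at 30 points, 25 with pooled replicates, 22 and 5 with a minimum of 50 and 200 for selection, and 15 to 36 without one replicate. Leaving out a replicate also loosens the call, since it then needs only 1 test. The period classes held 48 CpGs near 234 bp when 80% of bases had to match, and 340 by similarity. Other periods held 777 at 60% and 96 at 80%, and CpGs in several copies numbered 2252 with 32 bases and 736 with 72.

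No paired analysis was possible because the REST knockout has 1 library. Depth in the ChIP libraries, on average 0.638 and 1.14 observations a CpG outside the selected set, limits the tests to 761 of the 14514 CpGs.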
